A study of Mus musculus with 4 samples.

Results

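Transcripts of 10 genes that carry the TGF-beta signal or feed back on it were measured by RNA-seq in mouse embryonic fibroblasts (MEF) with and without the gene *Hmga2*. They are the SMAD signal carriers *Smad2*, *Smad3* and *Smad4*, the inhibitory SMADs *Smad6* and *Smad7*, the nuclear corepressors *Ski*, *Skil* and *Tgif1*, and *Smurf2* and *Pmepa1*, which act outside the nucleus. The members were chosen by name, with earlier results of these data known, among 25742 genes that had at least 1 transcript in the table. Each gene is represented by its transcript with the longest gene body on the same strand, and all 10 had a value above 0 in all 4 libraries.

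The study set *Hmga2*+/+ (wild type) against *Hmga2*-/- (knockout) MEF, each without (Ctrl) and with transforming growth factor beta 1 (TGFB1), to ask which genes respond to TGFB1 and whether the response differs without HMGA2, a chromatin protein that bends AT-rich DNA. All 4 groups were C57BL/6 fibroblasts from whole embryos at embryonic day 15.5, without head, limbs and inner organs, and were immortalized with simian virus, so the controls carry the immortalization too. All cultures were starved overnight in medium with 1% FCS. For the next 24 h the TGFB1 groups were kept with recombinant human TGFB1 at 10 ng/ml. The Ctrl groups received water, as the methods of the study state. The genotype label of the knockout reads Hmga-/- and its title Hmga2-/-. The labels do not say how many embryos or cell lines stand behind a group. Each group is 1 library, so no difference below has a replicate check. The intervals given cover counting error only and compare libraries, not conditions.

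The libraries held 56143300 to 57296400 mapped reads. *Hmga2* itself stood at 14.8 RPKM (reads scaled by transcript length and by sequencing depth) in *Hmga2*+/+ Ctrl and 40.7 RPKM in *Hmga2*+/+ TGFB1, and no read was found in either *Hmga2*-/- library, where a count of 0 allows up to 0.0124 RPKM. All 10 fibroblast markers checked reached 1 RPKM in at least 1 library. Of them, 5 (*Col3a1*, *Pdgfra*, *Lum*, *Dcn*, *S100a4*) were at least 1.5-fold lower with TGFB1 in both genotypes. Among all genes that reached 1 RPKM in any library, 17.5% in *Hmga2*+/+ and 15.9% in *Hmga2*-/- MEF were that much lower. *Thy1* was at least 1.5-fold higher in both genotypes and *Pdgfrb* in *Hmga2*-/- MEF alone, beside 12.1% and 13.8% of all genes. *Col1a1*, *Col1a2* and *Vim* did not pass 1.5-fold in either genotype. Of the markers of other cell types, none of 5 epithelial and none of 5 skeletal muscle genes reached 1 RPKM, against 2 of 5 endothelial genes (*Kdr*, *Tek*), 1 of 5 blood cell genes (*Cd68*) and 2 of 4 neural genes (*Map2*, *Tubb3*). The summed level was 1951 to 2354 RPKM over the fibroblast list, 3.89 to 8.16 over the endothelial, 11.6 to 23.6 over the neural and 1.26 to 1.63 over the blood cell list. Some of these genes differed with TGFB1, *Kdr* from 1.11 to 4.46 and from 1.46 to 7.39 RPKM, *Tek* from 2.75 to 0.330 and from 5.65 to 0.686, and *Map2* from 18.1 to 8.82 and from 22.6 to 9.20, and *Tubb3* from 0.913 to 2.81 and from 0.957 to 4.37, while the defining endothelial genes *Pecam1*, *Cdh5* and *Emcn* stayed between 0 and 0.048 RPKM in all libraries. The part of other cell types in the results was not tested. In such bulk libraries fewer cells that express a gene and less RNA per cell cannot be told apart.

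TGFB1 binds a pair of serine/threonine kinase receptors that phosphorylate SMAD2 and SMAD3. These receptor-activated SMADs (R-SMADs) join the shared partner SMAD4, enter the nucleus and bind DNA at short SMAD elements, where they switch target genes on or off. Several proteins act as brakes on the pathway, and the genes of some of them are such targets. The inhibitory SMADs (I-SMADs) block the receptors, and the SMURF ubiquitin ligases mark receptors and SMADs for degradation. The proteins SKI, SnoN (the product of *Skil*) and TGIF1 recruit histone deacetylases to SMADs on DNA.

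The promoter sequences show where SMAD elements lie in members whose level differed after TGFB1. Promoters were taken from RefSeq (build GRCm38.p6, 250 bases before to 50 bases after the start). They were found for 5 of the 10 members, *Smad3*, *Smad6*, *Ski*, *Smurf2* and *Tgif1*. The set of promoters at hand held none for *Smad2*, *Smad4*, *Smad7*, *Skil* and *Pmepa1*. Shown are *Smad6* and *Smad3*, the 2 members with a lower level after TGFB1, and *Tgif1* and *Smurf2*, 2 members with a higher level. Each is written 5′ to 3′ on the gene's strand, the minus strand in all 4, with the minimal SMAD element GTCT and its reverse complement AGAC in capitals. *Smad6* lies at chr9:64022010-64022309, *Smad3* at chr9:63757945-63758244, *Tgif1* at chr17:70853483-70853782 and *Smurf2* at chr11:106920666-106920965, and each start is also that of the transcript measured here.
Smad6: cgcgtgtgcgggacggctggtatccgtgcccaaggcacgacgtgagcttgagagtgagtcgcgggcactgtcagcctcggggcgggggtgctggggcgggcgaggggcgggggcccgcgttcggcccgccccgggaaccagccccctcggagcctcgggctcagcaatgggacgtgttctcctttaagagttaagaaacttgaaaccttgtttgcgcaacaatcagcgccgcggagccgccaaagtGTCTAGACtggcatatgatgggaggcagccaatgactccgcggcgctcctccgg
Smad3: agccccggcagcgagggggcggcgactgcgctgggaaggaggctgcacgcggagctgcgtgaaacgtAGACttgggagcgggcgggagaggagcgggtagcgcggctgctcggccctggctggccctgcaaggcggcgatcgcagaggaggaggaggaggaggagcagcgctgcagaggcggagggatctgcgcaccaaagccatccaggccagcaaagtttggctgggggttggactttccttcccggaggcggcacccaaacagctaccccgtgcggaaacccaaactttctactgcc
Tgif1: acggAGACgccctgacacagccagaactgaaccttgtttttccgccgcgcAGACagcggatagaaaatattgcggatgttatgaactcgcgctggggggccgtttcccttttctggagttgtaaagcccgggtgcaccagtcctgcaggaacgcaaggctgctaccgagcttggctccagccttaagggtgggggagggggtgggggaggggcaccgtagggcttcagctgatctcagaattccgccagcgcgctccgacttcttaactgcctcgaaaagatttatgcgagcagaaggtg
Smurf2: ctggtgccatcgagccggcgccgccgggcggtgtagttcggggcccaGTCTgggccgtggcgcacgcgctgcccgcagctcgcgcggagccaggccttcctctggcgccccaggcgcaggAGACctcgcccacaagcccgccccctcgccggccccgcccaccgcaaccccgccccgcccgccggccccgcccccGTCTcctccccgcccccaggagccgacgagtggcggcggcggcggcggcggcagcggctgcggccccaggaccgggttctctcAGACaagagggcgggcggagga
The *Smad6* promoter held the 8-base palindrome GTCTAGAC, which runs from base -4 to base 4 around the start (base 1 is the first transcribed base) and contains both minimal elements of that promoter. This palindrome was present in 70 of 32851 mouse promoters (0.213%) and in no other of the member promoters searched. The minimal element alone, on either strand, was in 88.0% of all promoters, with 1 match in *Smad3*, 2 in *Tgif1* as printed, 4 in *Smurf2* and 0 in *Ski*. CAGAC or GTCTG, which overlaps the minimal element, was in 49.6% of all promoters and was found once in *Tgif1* as printed and 2 times in *Smurf2*. The GC-rich motif GGCGC or GCGCC was in 36.9% of all promoters and was found 2 times in *Smad6*, 6 times in *Smurf2* and 7 times in *Ski*, where 85.3% of the bases were G or C against a median of 52.7% over all promoters. It was not found in *Smad3* or in *Tgif1* as printed. In *Smurf2* and *Ski* some matches of this motif overlapped each other, and each was counted. RefSeq gives *Tgif1* 4 further starts, whose promoters held 0 to 4 minimal elements, 0 to 2 matches of CAGAC or GTCTG and 0 to 2 of the GC-rich motif, so the counts for this gene depend on the start chosen. A match describes the letters only.

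Without TGFB1 the 10 genes spanned a 6.68-fold range in *Hmga2*+/+ and a 7.44-fold range in *Hmga2*-/- MEF, and with TGFB1 a 42.0-fold and a 45.6-fold range. *Pmepa1* took the first place from *Ski* after TGFB1 in both genotypes, *Skil* stood last without TGFB1 and next below *Ski* with it, and *Smad6* stood last with TGFB1. *Smad2*, *Smad4* and *Ski* stayed within 1.18-fold of their Ctrl level in both genotypes. No member differed by 1.5-fold between genotypes in either medium.

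**Figure D1:**
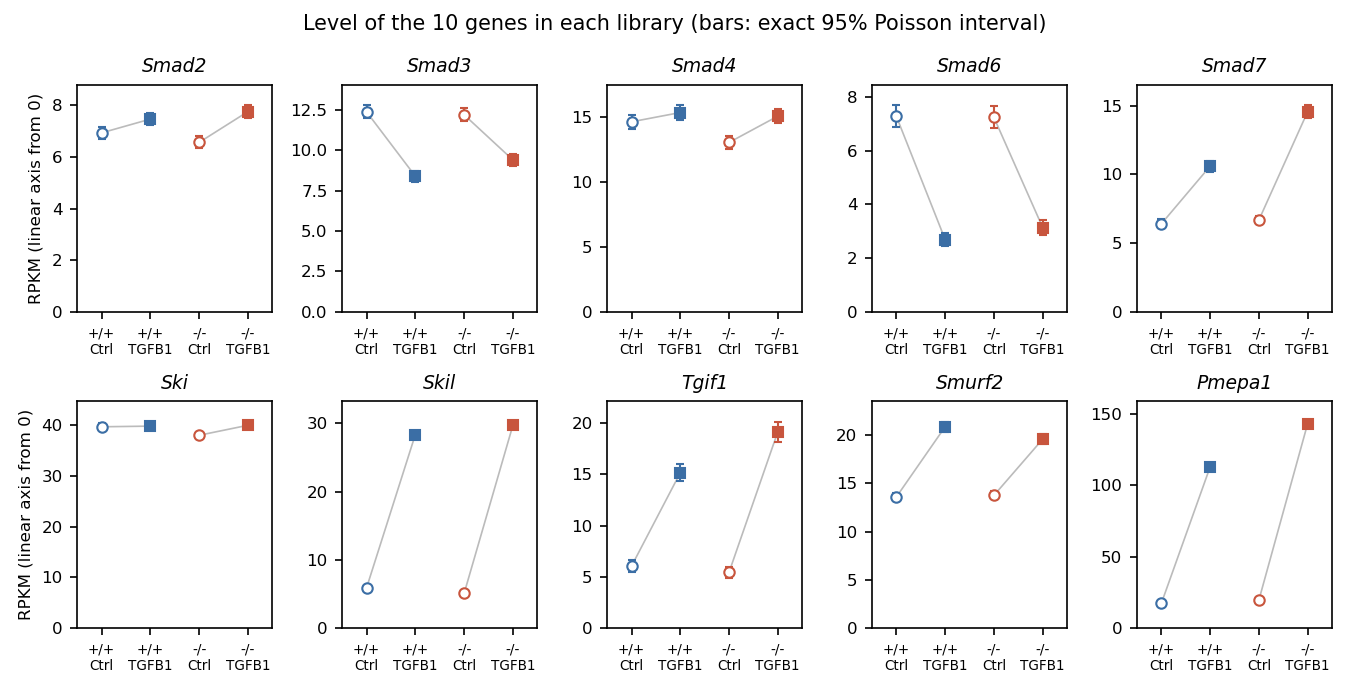
Level of each gene in RPKM (y axis, linear from 0, own scale per panel) in the 4 libraries (x axis), with the exact 95% Poisson interval as a bar and a grey line from Ctrl (open) to TGFB1 (filled) of 1 genotype. *Smad6* and *Smad3* were lower after TGFB1 in both genotypes, *Smad7*, *Skil*, *Tgif1*, *Smurf2* and *Pmepa1* higher, and *Ski* lay between 38.0 and 39.9 RPKM throughout.

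*Smad2* and *Smad3* encode the R-SMADs. *Smad2* measured 6.94 RPKM in *Hmga2*+/+ Ctrl, 7.47 in *Hmga2*+/+ TGFB1, 6.57 in *Hmga2*-/- Ctrl and 7.76 in *Hmga2*-/- TGFB1. *Smad3*, in the same order of libraries, measured 12.4, 8.39, 12.2 and 9.40 RPKM. The R-SMADs differed in direction: *Smad2* was 1.08-fold (95% counting interval, 1.03 to 1.13) and 1.18-fold (1.13 to 1.24) higher with TGFB1, whereas *Smad3* was 1.47-fold lower in *Hmga2*+/+ and 1.30-fold lower in *Hmga2*-/- MEF. On the log2 scale the *Smad3* response was -0.56 (-0.64 to -0.49) and -0.38 (-0.45 to -0.30), just short of the 1.5-fold mark in *Hmga2*+/+. Per length of transcript, *Smad3* exceeded *Smad2* 1.78-fold and 1.86-fold in Ctrl, and 1.12-fold and 1.21-fold after TGFB1. *Smad4*, the partner of both, measured 14.6, 15.3, 13.0 and 15.1 RPKM. Its TGFB1 response was 1.05-fold (0.995 to 1.11) in *Hmga2*+/+, an interval that includes no change, and 1.16-fold (1.09 to 1.22) in *Hmga2*-/- MEF.

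The 2 I-SMADs differed in opposite directions after TGFB1. *Smad6*, which blocks BMP receptors above all, measured 7.27 RPKM in *Hmga2*+/+ Ctrl, 2.69 in *Hmga2*+/+ TGFB1, 7.23 in *Hmga2*-/- Ctrl and 3.13 in *Hmga2*-/- TGFB1, from 1209, 456, 1213 and 529 reads. Both TGFB1 libraries lay below both Ctrl libraries, 2.71-fold lower in *Hmga2*+/+ and 2.31-fold lower in *Hmga2*-/- MEF (log2 -1.44, counting interval -1.59 to -1.28, and -1.21, -1.36 to -1.06). *Smad7*, which binds the activated TGF-beta receptor and brings SMURF ligases to it, measured 6.40, 10.6, 6.67 and 14.6 RPKM in the same order. It was 1.66-fold (1.56 to 1.76) higher with TGFB1 in *Hmga2*+/+ and 2.18-fold (2.06 to 2.31) higher in *Hmga2*-/- MEF. The ratio of *Smad7* to *Smad6* per length therefore went from 0.881 to 3.94 in *Hmga2*+/+ and from 0.923 to 4.64 in *Hmga2*-/- MEF, and that of *Smad7* to *Smad3* from 0.517 to 1.26 and from 0.547 to 1.55. The palindrome printed above lies in the *Smad6* promoter. No *Smad7* promoter was available to search, so the I-SMADs cannot be compared in this respect.

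Of the 3 nuclear corepressors, *Skil* and *Tgif1* stood far below *Ski* in Ctrl, and both stood closer to it with TGFB1. *Skil* measured 5.94 RPKM in *Hmga2*+/+ Ctrl and 5.10 in *Hmga2*-/- Ctrl, the lowest member in both, and 28.4 and 29.7 RPKM with TGFB1. That is 4.78-fold (4.57 to 5.00) and 5.82-fold (5.56 to 6.11) higher, and only 131 and 126 of 11299 genes had a larger log2 change. *Ski*, its closest relative, measured 39.6, 39.8, 38.0 and 39.9 RPKM. Its response was 1.00-fold (0.978 to 1.03) in *Hmga2*+/+ and 1.05-fold (1.03 to 1.08) in *Hmga2*-/- MEF, so the 4 libraries lay between 38.0 and 39.9 RPKM. *Skil* amounted to 0.150 and 0.134 of the *Ski* level in Ctrl and to 0.713 and 0.744 of it with TGFB1. *Tgif1*, a homeodomain corepressor, measured 6.06 RPKM in *Hmga2*+/+ Ctrl, 15.2 in *Hmga2*+/+ TGFB1, 5.46 in *Hmga2*-/- Ctrl and 19.2 in *Hmga2*-/- TGFB1. It was 2.50-fold (2.25 to 2.79) and 3.51-fold (3.15 to 3.92) higher with TGFB1, with the widest intervals of the 3, on 425 to 1500 reads.

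Outside the nucleus, *Pmepa1*, a membrane protein that keeps R-SMADs from the receptor, had the highest level of all members with TGFB1. It measured 17.4 RPKM in *Hmga2*+/+ Ctrl, 113 in *Hmga2*+/+ TGFB1, 19.7 in *Hmga2*-/- Ctrl and 143 in *Hmga2*-/- TGFB1. With TGFB1 it was 6.46-fold (6.26 to 6.67) and 7.26-fold (7.05 to 7.48) higher, and 94 and 102 of 11299 genes had a larger log2 change. *Pmepa1* made up 13.4% and 15.4% of the summed RPKM of the 10 genes in Ctrl, and 43.1% and 47.5% with TGFB1. *Smurf2*, an E3 ubiquitin ligase for receptors and SMADs, measured 13.6, 20.9, 13.8 and 19.6 RPKM. With TGFB1 it was 1.53-fold (1.47 to 1.60) higher in *Hmga2*+/+ and 1.42-fold (1.37 to 1.48) higher in *Hmga2*-/- MEF, so it passed 1.5-fold in 1 genotype, with an interval that includes 1.5. With 1 RPKM added to every value, or with the transcript of the highest mean in its place, *Smurf2* was 1.497-fold or 1.475-fold higher in *Hmga2*+/+ MEF and no longer passed.

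**Figure D2:**
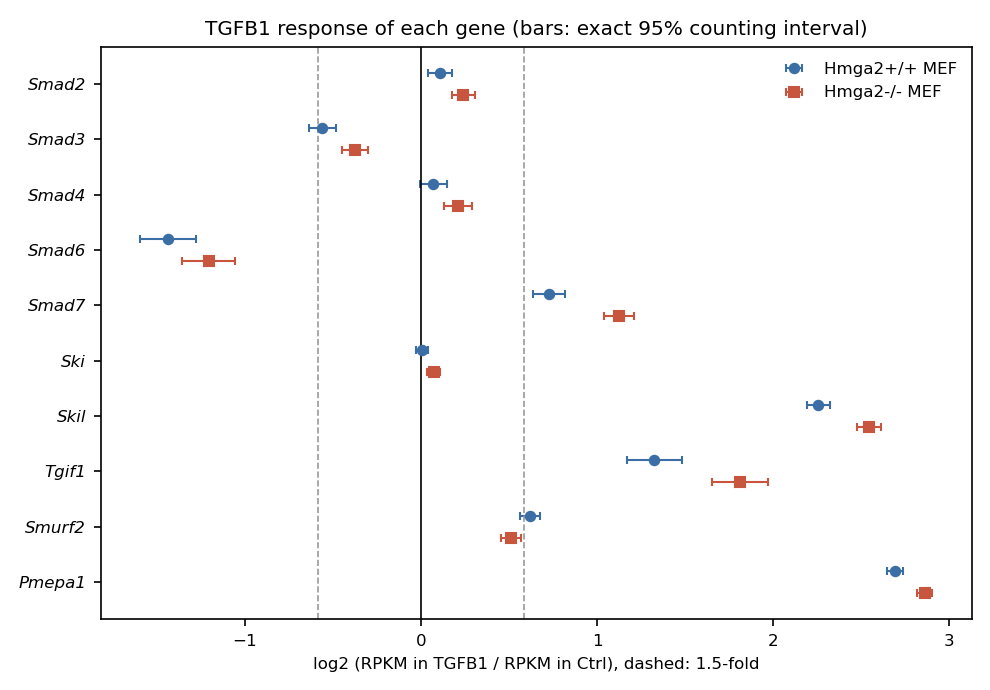
Log2 ratio of RPKM in TGFB1 to RPKM in Ctrl (x axis) for each gene (y axis) in *Hmga2*+/+ (circles) and *Hmga2*-/- MEF (squares), with exact 95% counting intervals as bars and dashed lines at 1.5-fold. *Smad6* at -1.44 and -1.21 is the sole member past the lower line, and *Smad7*, *Skil*, *Tgif1* and *Pmepa1* are past the upper line in both genotypes.

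Counted over the members, TGFB1 gave 5 genes at least 1.5-fold higher in *Hmga2*+/+ MEF (*Smad7*, *Skil*, *Tgif1*, *Smurf2*, *Pmepa1*), where 12.1% of 11299 genes were. These are all genes that reached 1 RPKM in any library. *Smad6* was the 1 member at least 1.5-fold lower, where 17.5% of all genes were. In *Hmga2*-/- MEF 4 members were higher, against 13.8% of all genes, and 1 was lower, against 15.9%. The higher members were the same without *Smurf2*, and the lower one was again *Smad6*. The median log2 response of the members was 0.36 in *Hmga2*+/+ and 0.37 in *Hmga2*-/- MEF, beside -0.05 and 0.01 over all genes. A threshold of 2-fold left 3 higher members in *Hmga2*+/+ (*Skil*, *Tgif1*, *Pmepa1*) and 4 in *Hmga2*-/- MEF, where 5.23% and 6.00% of all genes were that much higher.

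**Figure D3:**
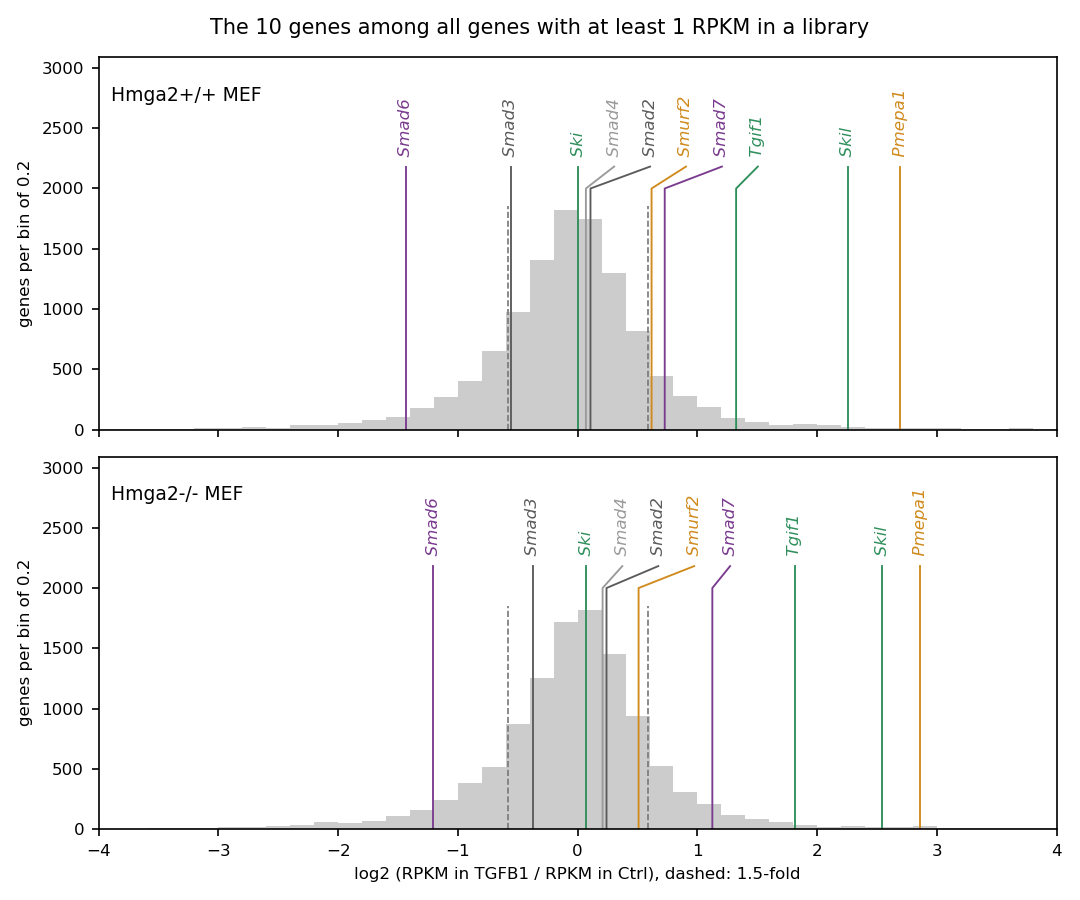
Number of genes per bin of 0.2 (y axis, grey bars) by log2 ratio of RPKM in TGFB1 to RPKM in Ctrl (x axis) in each genotype, over 11299 genes, with the 10 members as lines coloured by role and dashed lines at 1.5-fold. Genes beyond 4 on either side lie outside the axis. *Pmepa1*, *Skil* and *Tgif1* stand in the upper tail of both panels, and *Ski*, *Smad4* and *Smad2* stand near the centre.

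By level, the order of the members in *Hmga2*+/+ Ctrl was *Ski*, *Pmepa1*, *Smad4*, *Smurf2*, *Smad3*, *Smad6*, *Smad2*, *Smad7*, *Tgif1* and *Skil*. The Poisson intervals of neighbours overlapped from *Smad6* down to *Skil* and were apart above them. With TGFB1 the order in *Hmga2*+/+ MEF was *Pmepa1*, *Ski*, *Skil*, *Smurf2*, *Smad4*, *Tgif1*, *Smad7*, *Smad3*, *Smad2* and *Smad6*, and *Smad4* and *Tgif1* were the sole neighbours that overlapped. *Hmga2*-/- MEF differed from this in few places. In Ctrl, *Smurf2* stood above *Smad4* and *Smad7* above *Smad2*, each within overlapping intervals, as were those of *Smad4* and *Smad3*, *Smad6* and *Smad7*, and *Tgif1* and *Skil*. With TGFB1, *Tgif1* stood above *Smad4*, with intervals apart, and the pairs *Smurf2* and *Tgif1*, and *Smad4* and *Smad7*, overlapped.

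**Figure D4:**
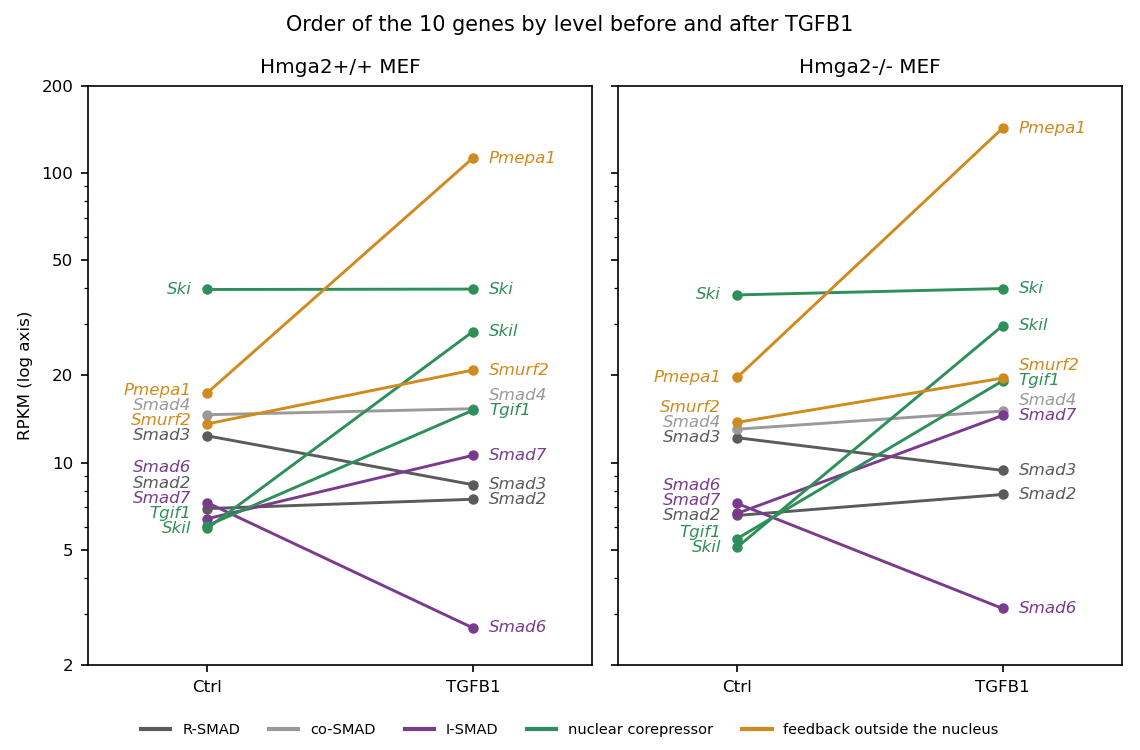
RPKM (y axis, log scale) of the 10 genes in Ctrl and TGFB1 (x axis) in *Hmga2*+/+ (left) and *Hmga2*-/- MEF (right), with lines coloured by role and names placed by rank and spread where they would overlap. With TGFB1, *Pmepa1* stands first and *Skil* next below *Ski* in both panels, *Ski* runs level between 38.0 and 39.9 RPKM, and *Smad6* stands last.

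Loss of *Hmga2* was then compared within each medium. In Ctrl, 0 of 10 members were at least 1.5-fold higher in *Hmga2*-/- than in *Hmga2*+/+ MEF and 0 were lower, where 2.93% of all genes were higher and 2.70% lower. *Skil* had the largest difference in size, with 5.10 against 5.94 RPKM (log2 -0.22, counting interval -0.31 to -0.13), followed by *Pmepa1* with 19.7 against 17.4 RPKM (0.17, 0.12 to 0.23) and *Smad4* with 13.0 against 14.6 RPKM (-0.17, -0.25 to -0.09). The median over the members was -0.04, beside -0.02 over all genes. With TGFB1, again 0 members were higher and 0 lower by 1.5-fold, where 3.84% of all genes were higher and 2.75% lower. *Smad7* came closest at 14.6 against 10.6 RPKM, 1.37-fold (1.31 to 1.44), followed by *Pmepa1* at 1.27-fold (1.25 to 1.29) and *Tgif1* at 1.26-fold (1.17 to 1.36). The median was 0.12 over the members and 0.04 over all genes. Both comparisons reuse the libraries of the TGFB1 comparisons above, so they are not independent of them.

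The log2 TGFB1 response of 9 of the 10 members was higher (further up, or less far down) in *Hmga2*-/- than in *Hmga2*+/+ MEF, a comparison of responses that share no library. *Tgif1* differed most, with 1.81 against 1.32 (difference 0.49, exact counting interval 0.26 to 0.71), followed by *Smad7* with 1.12 against 0.73 (0.40, 0.27 to 0.52) and *Skil* with 2.54 against 2.26 (0.29, 0.19 to 0.38). For the 2 lower members a positive difference means a smaller decrease: *Smad6* differed by 0.23 (0.01 to 0.45) and *Smad3* by 0.19 (0.08 to 0.29). *Pmepa1* differed by 0.17 (0.11 to 0.23), *Smad4* by 0.14 (0.03 to 0.25), *Smad2* by 0.13 (0.04 to 0.23) and *Ski* by 0.07 (0.02 to 0.12). *Smurf2* went the other way at -0.11 (-0.19 to -0.03). All genes leaned the same way, with 58.9% above 0, a median of 0.05 and quartiles of -0.10 and 0.19, and the members' median was 0.18. Only *Smad7*, *Skil*, *Tgif1* and *Smad6* exceeded the upper quartile of all genes, and none exceeded the 95th percentile of 0.50. A difference of responses reflects the Ctrl libraries as well as the TGFB1 libraries. Between genotypes, *Skil* differed by log2 -0.22 in Ctrl and 0.07 with TGFB1, and *Smad4* by -0.17 and -0.03. *Smad7* differed by 0.06 in Ctrl and 0.46 with TGFB1. No replicate shows how far such differences of responses vary between cultures.

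Most members were represented by several annotated transcripts, 28 in all, of which 25 were spliced. The spliced transcripts of a gene share exons and reads, and their log2 responses lay close together, for *Skil* between 2.23 and 2.35 in *Hmga2*+/+ over 4 transcripts and for *Tgif1* between 1.28 and 1.34 over 5. *Skil* had 1 short form (uc008ovt.2) at 2.64, 13.5, 2.39 and 13.6 RPKM, below the other 3 in level and like them in response. A single-exon transcript inside *Smurf2* (uc056yoz.1), with 3.97% of its span in exons of protein-coding transcripts, measured 2.15 RPKM in *Hmga2*+/+ Ctrl, 3.36 in *Hmga2*+/+ TGFB1, 2.14 in *Hmga2*-/- Ctrl and 2.83 in *Hmga2*-/- TGFB1. Its log2 response, 0.65 and 0.40, was close to the 0.62 and 0.51 of the spliced *Smurf2* transcript. A single-exon transcript inside *Ski* (uc029vbc.1) collected 5 to 9 reads per library. The remaining single-exon transcript lies inside *Tgif1* (uc057bjv.1) and measured 1.55, 3.25, 1.26 and 3.27 RPKM in the same order of libraries. Its log2 response was 1.07 and 1.38, below the 1.32 and 1.81 of the spliced *Tgif1* transcript used. With TGFB1 it differed by log2 0.01 between genotypes, where that spliced transcript differed by 0.34. One further annotated gene, *Gm27322*, overlaps exons of *Smurf2* on the same strand, and its reads cannot be told apart from those of *Smurf2*. No exon of the other 9 members overlapped an exon of another annotated gene on either strand.

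The transcripts used (build mm10, as the table gives them) were for *Smad3* uc009qbi.1 at chr9:63646767-63757994, for *Smad6* uc009qbk.2 at chr9:63953076-64022059, for *Ski* uc008wcz.1 at chr4:155154075-155222535 and for *Tgif1* uc008dlr.2 at chr17:70844205-70853532, all on the minus strand. *Smurf2* was read from uc007lzx.2 at chr11:106820064-106920715 and *Pmepa1* from uc008odq.1 at chr2:173224465-173276533, also on the minus strand, and *Skil* from uc008ovv.2 at chr3:31095058-31122923 on the plus strand. *Smad2* (uc008fqn.2, chr18:76241701-76311747, plus strand), *Smad4* (uc008fov.1, chr18:73639013-73703741, minus strand) and *Smad7* (uc008fqd.1, chr18:75367365-75395934, plus strand) share chromosome 18, and *Smad7* alone of these passed 1.5-fold. Exon lengths of the 10 transcripts ran from 1375 bases in *Tgif1* to 8731 bases in *Smad2*.

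Beyond the members, 51 genes of the pathway were read from lists, of which 45 reached 1 RPKM in any library. In *Hmga2*+/+ MEF 12 of these 45 were at least 1.5-fold higher with TGFB1 and 7 lower, and in *Hmga2*-/- MEF 12 were higher and 8 lower. The background over all genes was the one given above, 12.1% higher and 17.5% lower in *Hmga2*+/+ and 13.8% and 15.9% in *Hmga2*-/- MEF, so the lower counts lay near the background share. Of these 45, 19 passed in the same direction in both genotypes. The median log2 response was 0.15 and 0.18, beside -0.05 and 0.01 over all genes.

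The remaining SMADs carry BMP signals. *Smad9* measured 3.60 RPKM in *Hmga2*+/+ Ctrl, 0.757 in *Hmga2*+/+ TGFB1, 3.06 in *Hmga2*-/- Ctrl and 0.563 in *Hmga2*-/- TGFB1 (log2 -2.25 and -2.44), a larger decrease than that of any member. *Smad1* (0.18 and 0.34) and *Smad5* (0.15 and 0.05) did not pass 1.5-fold. Of 15 further negative regulators, 12 had at least 1 RPKM, and 4 of these were higher and 0 lower in both genotypes, beside 12.1% and 13.8% of all genes higher. They were *Ldlrad4*, which keeps R-SMADs from the receptor as PMEPA1 does (1.00 and 0.77), *Ppp1r15a*, a phosphatase subunit that SMAD7 uses (0.85 and 0.82), the ligase *Smurf1* (0.77 and 0.87) and *Strap*, a SMAD7 partner (0.60 and 0.64). *Smurf1* measured 6.51, 11.1, 6.65 and 12.1 RPKM, so both SMURF genes were higher with TGFB1, and *Smurf2* stood above *Smurf1* in every library.

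Among 8 positive regulators, 0 were higher and 1 was lower in both genotypes, near the 17.5% and 15.9% of all genes that were lower. That gene was *Usp11*, a deubiquitinase of the receptor (-1.14 and -1.30), whereas its relatives *Usp15* (0.46 and 0.51) and *Usp4* (0.17 and 0.17) did not pass. The acetyltransferase gene *Ep300* did not pass either (0.17 and -0.15). Of 4 corepressor partners, 0 passed in either direction in either genotype. They were the deacetylase genes *Hdac1* (-0.24 and -0.32) and *Hdac2* (0.14 and 0.22) and the scaffold genes *Ncor1* (0.04 and -0.27) and *Sin3a* (0.03 and -0.03).

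Of 11 receptors, 8 had at least 1 RPKM. In *Hmga2*+/+ MEF 3 were higher and 1 lower, and in *Hmga2*-/- MEF 3 were higher and 2 lower, with *Acvr1b* (-0.53 and -0.61) as the added one. Of all genes, 12.1% were higher and 17.5% lower in *Hmga2*+/+ MEF, and 13.8% and 15.9% in *Hmga2*-/- MEF. The type I receptor gene *Tgfbr1* measured 4.30, 6.95, 4.29 and 8.57 RPKM (0.69 and 1.00), next to *Bmpr2* (0.82 and 0.69) and *Acvr1* (0.76 and 0.90). The coreceptor gene *Tgfbr3* went from 38.2 to 17.6 and from 38.1 to 13.7 RPKM (-1.12 and -1.47). All 10 textbook targets had at least 1 RPKM, and 5 were higher (*Ccn2*, *Bhlhe40*, *Junb*, *Cdkn1a*, *Cdkn2b*) and 4 lower in both genotypes. The shares of all genes to set beside these counts are those given for the receptors. *Ccn2*, a matricellular protein gene, went from 13.2 to 173 and from 24.9 to 359 RPKM (3.71 and 3.85), and *Bhlhe40*, a helix-loop-helix repressor gene, from 18.9 to 47.3 and from 16.4 to 56.3 RPKM (1.33 and 1.78). The BMP target genes *Id3* (-2.55 and -2.73) and *Id2* (-2.37 and -2.82), inhibitors of helix-loop-helix factors, were lower, as *Smad6* and *Smad9* were. *Id1* (-1.24 and -0.98) and *Tgfbi* (23.0 to 14.2 and 29.2 to 14.6 RPKM) were the other lower targets. Between genotypes, 1 target (*Ccn2*) was at least 1.5-fold higher in *Hmga2*-/- than in *Hmga2*+/+ MEF in Ctrl and 4 with TGFB1 (*Ccn2*, *Junb*, *Cdkn1a*, *Snai1*), and 0 were lower in either medium, where 2.93% of all genes were higher in Ctrl and 3.84% with TGFB1.

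**Figure D5:**
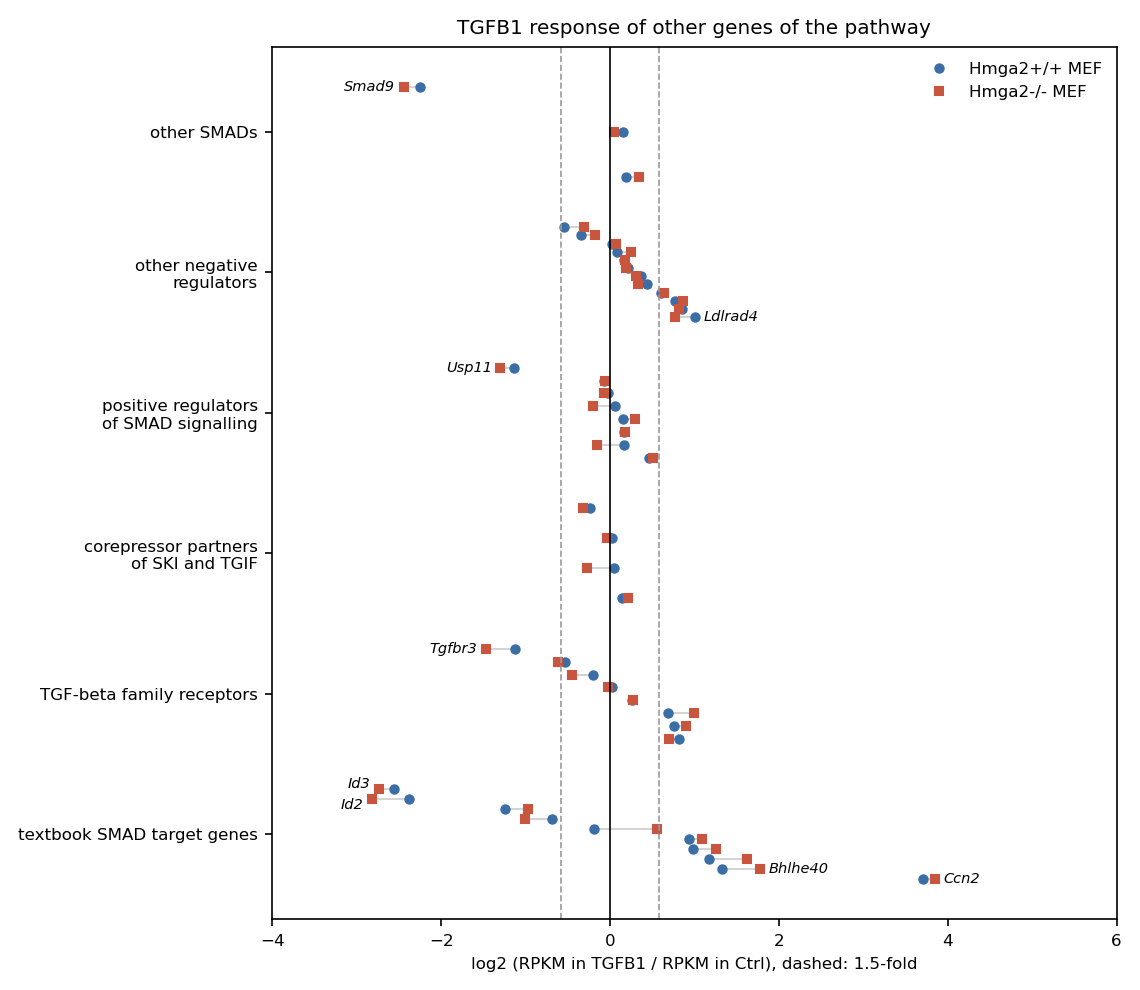
Log2 ratio of RPKM in TGFB1 to RPKM in Ctrl (x axis) for the 45 other pathway genes with at least 1 RPKM, by list (y axis), in *Hmga2*+/+ (circles) and *Hmga2*-/- MEF (squares), with a grey line joining the values of 1 gene and dashed lines at 1.5-fold. Named genes with a change of at least 2-fold in 1 genotype are labelled, from *Id2* at -2.82 to *Ccn2* at 3.85.

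For *Pmepa1*, *Skil* and *Smad7*, genes with the most similar pattern over the 4 libraries were sought. The measure was the distance between log2 RPKM values centred on each gene's mean. The search covered 7410 genes that reached 5 RPKM in any library and had a value above 0 in all 4. *Pmepa1* was closest to *Smoc2* (distance 0.11), which measured 5.98, 41.8, 7.45 and 53.0 RPKM, and then to *Pdgfc* (0.18) and *Ltbp2* (0.19). *Skil* was closest to *Kif26b* (0.15), *Eln* (0.24) and *Bcat1* (0.25), and *Smad7* to *Xbp1* (0.05), *Fads3* and *Snhg1* (0.07 each). Between members, *Smad2* and *Smad4* were closest (0.09), and *Pmepa1* and *Skil* were 0.51 apart. With 4 libraries such distances only rank genes.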

How the data were processed

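RNA of 4 groups was sequenced by the authors as stranded total RNA, trimmed with Trimmomatic, mapped to mm10 with HISAT2 2.1.0 and quantified with HOMER. The methods speak of duplicates from a single experiment, while the table holds 1 column per condition, and whether a column pools cultures is not stated. The deposited values are RPKM per UCSC known gene transcript, rounded to 3 decimals. The file header gives counting over exons on the plus strand setting, and the methods give counting over genes. The deposited transcript lengths (in bases, another unit) were used as given. No column of other samples was present (0).

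Of 63759 transcripts, 57708 (90.5%) were assigned to 25742 genes by GENCODE vM21 positions on the same strand, with at least 50% of the span inside the gene, and the longest gene body stood for a gene. RPKM values of transcripts up to 600 bases are whole multiples of 1 read, which gave 56143300 to 57296400 mapped reads per library (100% of 1396 to 1409 values within 0.1 of a whole read); 3 reads on 1 kilobase are 0.0524 to 0.0534 RPKM. Reads then gave exact 95% intervals (Poisson for levels, Clopper-Pearson for ratios, conditional exact for ratios of ratios), checked on simulated data. Such intervals cover counting error only. No test or p-value was possible with 1 library per condition. As in the study's methods, 0 was set to 0.001 RPKM and 1.5-fold was the threshold, and shares of all genes were taken over the 11299 genes that reached 1 RPKM in any library.

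The members and lists were chosen with earlier results of these data known. The text names all 10 members, *Hmga2*, the 4 genes per pathway list with the largest TGFB1 response in *Hmga2*+/+ MEF, cell type markers and the 3 nearest patterns of *Smad7*, *Skil* and *Pmepa1*. *Acvr1b*, *Id1*, *Tgfbi*, *Junb*, *Cdkn1a*, *Cdkn2b* and *Snai1* were named after their values were seen. Some genes of the lists are not reported here, and counts are over the rest. *Ccn2* stood in the list as *Ctgf*, and *Sox2* had no transcript so named. Alternatives were a pseudocount of 0.1 or 1 RPKM, median ratio scaling, the transcript with the highest mean, the sum of transcripts, a 2-fold threshold and another filter. Python 3.11.15, numpy 2.4.6, pandas 2.3.3, scipy 1.17.1 and matplotlib 3.10.9 were used.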

Additional observations from a re-analysis of the deposited data

Results flagged for a closer look

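Among the members and pathway genes named in the text, *Ep300*, *Ncor1*, *Sin3a* and *Snai1* were the ones whose TGFB1 response had opposite signs in the genotypes. *Ep300*, an acetyltransferase gene, measured 16.2 RPKM in *Hmga2*+/+ Ctrl, 18.2 in *Hmga2*+/+ TGFB1, 16.2 in *Hmga2*-/- Ctrl and 14.5 in *Hmga2*-/- TGFB1, a log2 response of 0.17 (0.1713) in *Hmga2*+/+ and -0.15 (-0.1517) in *Hmga2*-/- MEF. *Ncor1*, a corepressor scaffold gene, measured 33.5, 34.6, 36.9 and 30.6 RPKM in the same order, a log2 response of 0.04 (0.04429) and -0.27 (-0.2699). *Sin3a*, another corepressor scaffold gene, measured 20.5, 20.9, 19.2 and 18.7 RPKM, a log2 response of 0.03 (0.02658) and -0.03 (-0.0334). *Snai1*, a repressor gene of the zinc finger family, measured 1.73, 1.53, 1.89 and 2.79 RPKM, a log2 response of -0.18 (-0.1843) and 0.56 (0.5573). None of the 4 passed 1.5-fold in either genotype. With 1 library per condition the difference between genotypes was not tested. No counting interval is given for these 4 genes. Opposite signs of small values, such as those of *Sin3a*, therefore cannot be told apart from counting error here.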

How the results depend on the processing

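All 10 members kept their side of 1.5-fold in all 4 comparisons under every alternative, apart from *Smurf2* in *Hmga2*+/+ MEF and, at the 2-fold threshold, *Smad7* in *Hmga2*+/+ MEF. With the 2-fold threshold 3 members were higher in *Hmga2*+/+ MEF, in place of 5. Of 200 log2 changes of members recomputed, 191 stayed within their counting interval, 9 moved beyond it and 0 of the called ones changed sign. Under median ratio scaling 3 values near 0 changed sign, none of them past 1.5-fold: *Smad3* and *Smad6* between genotypes in Ctrl, and *Ski* between genotypes with TGFB1. The largest shift was that of *Smad6* in *Hmga2*+/+ MEF with a pseudocount of 1, to -1.17. Of 50 differences between the genotypes' responses, 49 stayed within their interval, and the exception was *Ski* under median ratio scaling, at 0.0152 in place of 0.07. Under every alternative 9 of the 10 differences were above 0. Median ratio scaling divided the libraries by 0.991 to 1.01. The share of all genes past the threshold ran from 1.01% to 7.64% at 2-fold, from 11.5% to 26.8% without the filter at 1 RPKM, and from 0.991% to 11.3% with a pseudocount of 1, over the 8 comparisons and directions. No paired analysis was possible because each group holds a single library. Depth limits *Tgif1* and *Smad6* most, with 425 to 1500 and 456 to 1213 reads.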

Other observations

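The list of negative regulators also held genes at low levels. *Skor1* and *Skor2*, corepressors of the SKI family known from neurons, reached at most 0.030 and 0 RPKM, so of the family members listed *Ski* and *Skil* were the ones with at least 1 RPKM. *Bambi*, a decoy receptor, went from 1.52 to 1.05 RPKM with TGFB1 in *Hmga2*+/+ and from 1.52 to 1.23 in *Hmga2*-/- MEF. Its log2 response of -0.54 and -0.31 did not pass 1.5-fold. *Tgif2*, the relative of *Tgif1*, stayed between 1.60 and 1.68 RPKM. Its log2 TGFB1 response was 0.02 and 0.07, against 1.32 and 1.81 for *Tgif1*. These genes were chosen after their values were seen. Summed over all 10 members, the level was 130.3 RPKM in *Hmga2*+/+ Ctrl, 261.4 in *Hmga2*+/+ TGFB1, 127.7 in *Hmga2*-/- Ctrl and 301.3 in *Hmga2*-/- TGFB1.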
